A study of Mus musculus with 9 samples.

Results

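Egr1, Egr2, Ier2, Ier3, Ier5, Klf2, Klf4, Klf6, Klf9 and Klf10 are 10 response genes of the Egr, Ier and Klf families, taken here by symbol from the 19938 mouse genes that have a probe set annotated to 1 symbol. Each of the 10 had 1 probe set. The 10 were chosen with earlier results of these data known. Their shares and medians set beside all tested genes are therefore descriptions and no test of the list. Their mRNA was measured in C2C12 cells, an immortalised line of mouse myoblasts, with Affymetrix whole-transcript arrays. The cells had received Cugbp1 siRNA, Mbnl1 siRNA or control siRNA and were harvested 0, 2.5 or 5 h after 5 ug/ml actinomycin D was added, so the control siRNA cells of the later times carry the drug as well. Cugbp1 is the older name of Celf1; the sequences and doses of the siRNAs are not stated in the sources used here. Each combination of siRNA and time had 1 array, 9 in all, so there were 3 arrays per siRNA and 3 per time and no replicates. Whether separate cultures stand behind the arrays is not stated in the labels, so the p-values measure only the spread between these arrays, which may be technical. An error given below is therefore the standard error of a limma fit with siRNA and time as factors, and its p-value weighs an effect against what siRNA and time, acting additively, leave unexplained.

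Immediate early genes are switched on by serum, growth factors or stress without new protein synthesis, and many of their mRNAs are short-lived, so their level tracks recent transcription. Egr proteins are zinc finger transcription factors, the Ier genes encode small regulatory proteins of the same early response, and Klf proteins are zinc finger factors that bind GC-rich and CACCC sequences. Actinomycin D blocks transcription, and the disappearance of an mRNA after its addition then follows decay. CUGBP1 and MBNL1 are RNA-binding proteins known for roles in splicing and in the fate of mRNAs in muscle, which is the setting in which the study asked about decay.

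Windows from the RefSeq table of mouse promoters (build GRCm38.p6) were searched for motifs. They are reported for 7 of the 10 genes: Egr2, Ier3, Ier5, Klf2, Klf4, Klf6 and Klf9. The 250 bases before the start are shown for Egr2 and Ier3, and for Klf4 and Klf6, whose mRNAs fell most over 5 h. Capitals mark the motifs searched on both strands: the CArG box bound by serum response factor, GGGCGG and CACCC, which SP and KLF factors bind, TGACG, the core of the cAMP response element, and TATAA.
Egr2 promoter, chr10:67537619-67537868, plus strand: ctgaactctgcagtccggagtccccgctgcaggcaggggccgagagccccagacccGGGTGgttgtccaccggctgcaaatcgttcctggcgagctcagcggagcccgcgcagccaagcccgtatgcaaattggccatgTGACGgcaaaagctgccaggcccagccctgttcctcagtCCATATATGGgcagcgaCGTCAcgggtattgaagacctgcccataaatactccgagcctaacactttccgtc
Ier3 promoter, chr17:35821463-35821712, plus strand: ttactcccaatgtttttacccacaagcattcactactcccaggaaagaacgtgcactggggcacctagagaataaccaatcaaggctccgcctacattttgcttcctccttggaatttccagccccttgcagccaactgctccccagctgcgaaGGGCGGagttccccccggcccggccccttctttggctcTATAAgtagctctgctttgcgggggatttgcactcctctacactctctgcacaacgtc
Klf4 promoter, chr4:55532476-55532725, minus strand: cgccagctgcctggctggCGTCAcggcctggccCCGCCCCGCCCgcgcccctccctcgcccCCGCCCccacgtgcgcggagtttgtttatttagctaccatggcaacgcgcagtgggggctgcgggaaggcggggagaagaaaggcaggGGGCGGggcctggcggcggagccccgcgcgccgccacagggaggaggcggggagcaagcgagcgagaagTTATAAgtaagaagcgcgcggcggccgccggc
Klf6 promoter, chr13:5861239-5861488, plus strand: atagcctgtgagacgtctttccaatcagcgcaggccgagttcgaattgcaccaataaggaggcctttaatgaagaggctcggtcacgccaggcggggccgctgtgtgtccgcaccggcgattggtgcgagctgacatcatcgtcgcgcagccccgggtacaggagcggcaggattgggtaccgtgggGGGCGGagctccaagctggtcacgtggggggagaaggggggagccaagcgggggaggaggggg
A CArG box stood in the Egr2 window, ending 62 bases before the start, and in 4 of the 5 Egr2 windows of the table, 3 of which overlap. It was found in none of the windows of the other 6 genes reported. Among all 32851 windows of this length, with no chromosome left out, 1.47% held one. Egr1 was not searched, so nothing is said of a CArG box there. With 1 window per gene, for Egr2 the one shown, which was picked after its motifs were seen, GGGCGG was present in 5 of the 7 windows, those of Ier3, Ier5, Klf2, Klf4 and Klf6, against 32.7% of all windows. TATAA was present in 4 of the 7 against 22.8%, TGACG in 4 against 17.8%, and CACCC in 3 against 52% of all windows. Motifs of the Egr2 gene differ with the start chosen: GGGCGG and TATAA stand in others of its 5 windows and not in the one shown. No marked motif overlapped a different one. These matches describe letters in a window and were not tested for any part in the values below.

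The arrays had median intensities between 104.9 and 113. Celf1 mRNA under Cugbp1 siRNA was at 30.9%, 22.1% and 21.6% of its control siRNA level at 0, 2.5 and 5 h, and Mbnl1 mRNA under Mbnl1 siRNA at 22%, 18.3% and 15.9%. Celf1 was also lower under Mbnl1 siRNA (log2 difference −0.59 ± 0.09, limma adjusted p = 0.000931). All 5 myoblast markers (Myod1, Myf5, Cdh15, Des, Ncam1) were above background on all 9 arrays. Background was taken from 1035 probe sets of olfactory receptor genes, a family that myoblasts are not known to use: their 95th percentile on an array lay between log2 6.18 and 6.40. Of the 19938 genes, 9864 had a mean log2 of at least 7.385, the midpoint of the probe sets with 1 symbol, and entered the test. Calls were made below 0.05 after Benjamini-Hochberg adjustment across these genes. Egr1, Egr2, Ier3, Klf2, Klf4, Klf6, Klf9 and Klf10 passed this filter. Ier2 (mean log2 6.81) and Ier5 (mean log2 7.18) did not, and their tests come from a fit of all 19938 genes. None of the 10 fell to the olfactory 95th percentile on any array. Ier2 came nearest, 0.03 above it under Cugbp1 siRNA at 2.5 h, and Ier5 came within 0.44; the other 8 stayed at least 0.64 above. RMA sets arrays to a common distribution, so a change is relative to the other transcripts. After the arrays were brought to a common median of 53 ribosomal protein genes, the median change of all tested genes moved by −0.11 at 2.5 h and −0.23 at 5 h, and the share of called genes that were higher was 4.48% in place of 48.8% at 2.5 h, 4.1% in place of 52.1% at 5 h, and 0.224% in place of 20.9% for the interval between them, whose median moved by −0.12.

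**Figure D1:**
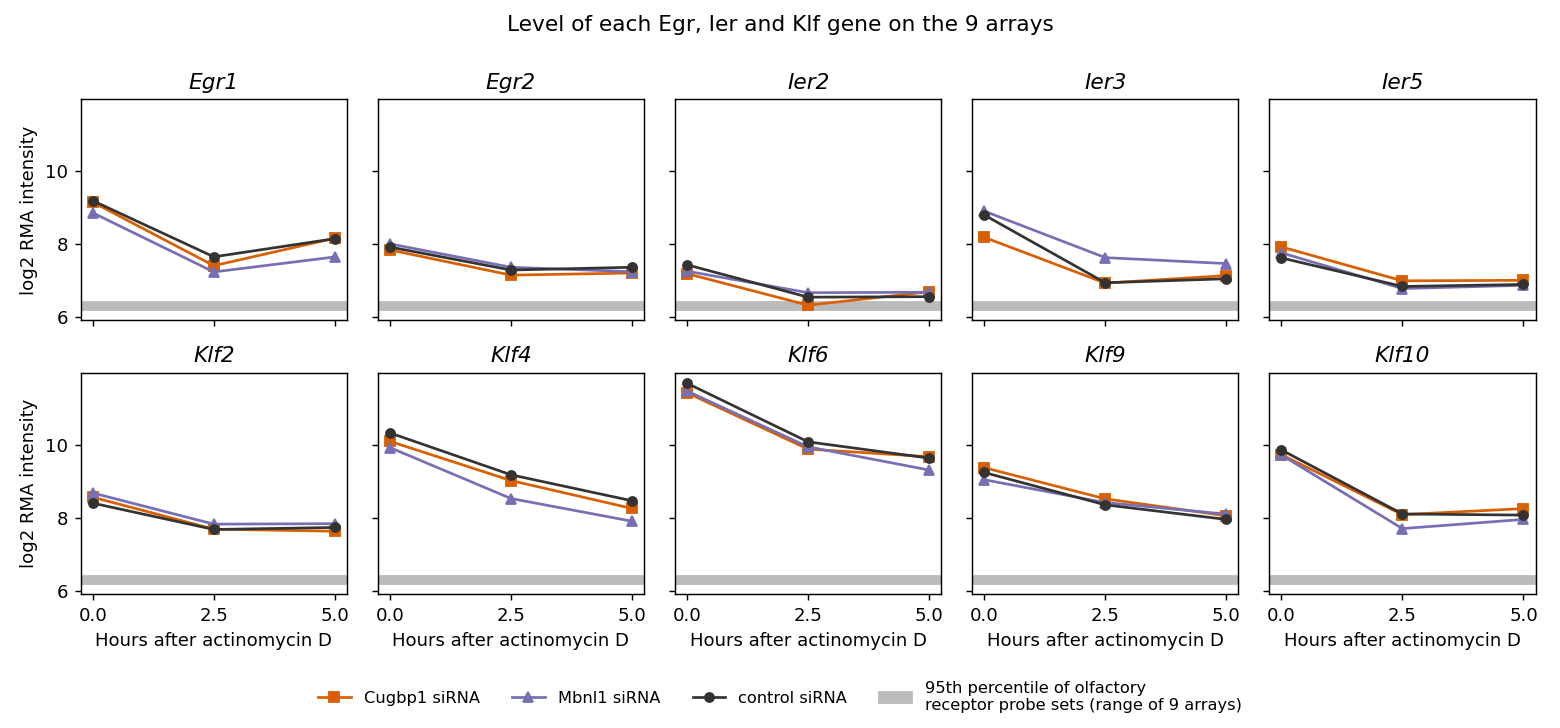
Level of each gene (vertical axis, log2 RMA intensity) against hours after actinomycin D, with 1 point per array and a line per siRNA. The grey band spans the olfactory receptor 95th percentile over the 9 arrays (6.18 to 6.40). All 10 genes stood lower at 2.5 h than at 0 h under each siRNA; levels of different genes are not comparable with each other.

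All 10 mRNAs fell in the first 2.5 h of transcription arrest, under each of the 3 siRNAs. Klf10, also known as TGF-beta inducible early gene, lost the most, followed by Egr1, Klf6 and Ier3, while Egr2 lost the least. Each of the 8 tested genes was called lower, where 24.2% of all tested genes were called lower and 23.1% higher. This comparison only describes the 8, since they were chosen with earlier results of these data known. The median log2 change of the 8 was −1.34 against 0.03 for all tested genes. With equal ribosomal protein medians all 8 were again called lower, where 3135 of the 9864 tested genes were called lower and 147 higher. Egr2 and Ier3 passed the filter through their 0 h levels. Their mean log2 levels, 7.26 and 7.16 at 2.5 h and 7.27 and 7.21 at 5 h, lay under its cut of 7.385. The fit of all genes has no such filter, and there all 10 were called lower, Ier2 and Ier5 among them. In that fit 11.9% of genes were called lower and 8.81% higher.

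Klf10 (probe set 10428302) had log2 levels of 9.73, 8.08 and 8.25 at 0, 2.5 and 5 h under Cugbp1 siRNA, 9.72, 7.70 and 7.95 under Mbnl1 siRNA, and 9.86, 8.10 and 8.07 under control siRNA. The 0 h arrays stood apart from all 6 later ones. The fall at 2.5 h was 3.51-fold (−1.81 ± 0.08 on the log2 scale, SE, with 3 arrays at each time, limma adjusted p = 2.34e-06), and 31 of the 9864 tested genes fell further. Between 24.6% and 31.9% of the 0 h level was left, which corresponds to an apparent half-life of 1.24 to 1.52 h over this interval.

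Egr1, a zinc finger factor induced through MAP kinase signalling and serum response factor (probe set 10454782), had log2 levels of 9.15, 7.40 and 8.16 under Cugbp1 siRNA, 8.85, 7.23 and 7.64 under Mbnl1 siRNA, and 9.19, 7.65 and 8.14 under control siRNA. The 2.5 h array was the lowest of its siRNA in each case, and the 5 h arrays lay between those of 0 and 2.5 h. Egr1 fell 3.11-fold by 2.5 h (−1.64 ± 0.06, limma adjusted p = 1.74e-06), with 29.9% to 34.3% left and an apparent half-life of 1.43 to 1.62 h.

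Klf6, a factor with roles in growth control (probe set 10403352), had log2 levels of 11.43, 9.88 and 9.67 under Cugbp1 siRNA, 11.48, 9.94 and 9.31 under Mbnl1 siRNA, and 11.69, 10.08 and 9.63 under control siRNA. Levels fell at each step under each siRNA. The fall at 2.5 h was 2.96-fold (−1.56 ± 0.08, limma adjusted p = 4.05e-06), and the 3 siRNAs were close to each other, with 32.8% to 34.5% left.

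Ier3, a regulator of cell survival and stress signalling (probe set 10444890), had log2 levels of 8.18, 6.93 and 7.13 under Cugbp1 siRNA, 8.90, 7.62 and 7.46 under Mbnl1 siRNA, and 8.80, 6.93 and 7.04 under control siRNA. The 0 h arrays stood above the later ones under every siRNA, and the standard error of its fit, 0.13, was the largest among the 10 genes. Ier3 fell 2.76-fold by 2.5 h (−1.47 ± 0.13, limma adjusted p = 7.11e-05), with 41.8% left under Cugbp1 siRNA, 41.3% under Mbnl1 siRNA and 27.5% under control siRNA.

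Klf4, a factor known from reprogramming and from differentiation of epithelia (probe set 10513008), had log2 levels of 10.10, 9.02 and 8.25 under Cugbp1 siRNA, 9.93, 8.53 and 7.90 under Mbnl1 siRNA, and 10.33, 9.18 and 8.46 under control siRNA. It fell steadily, and at every time the Mbnl1 siRNA array was the lowest of the 3. The fall at 2.5 h was 2.31-fold (−1.21 ± 0.06, limma adjusted p = 3.76e-06).

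The smaller falls were those of Ier5, Klf2, Klf9, Ier2 and Egr2. Klf2, a close relative of Klf4 known from endothelium and T cells (probe set 10572800), had log2 levels of 8.56, 7.68 and 7.63 under Cugbp1 siRNA, 8.68, 7.82 and 7.84 under Mbnl1 siRNA, and 8.40, 7.68 and 7.73 under control siRNA, and fell by 0.82 ± 0.05 on the log2 scale at 2.5 h (limma adjusted p = 1.14e-05). Klf9, a target of the glucocorticoid receptor (probe set 10462091), had log2 levels of 9.37, 8.52 and 8.05 under Cugbp1 siRNA, 9.04, 8.41 and 8.10 under Mbnl1 siRNA, and 9.24, 8.35 and 7.95 under control siRNA, and fell by 0.79 ± 0.07 (adjusted p = 7.33e-05). Egr2, known from hindbrain and Schwann cell development (probe set 10363735), had log2 levels of 7.84, 7.14 and 7.20 under Cugbp1 siRNA, 8.003, 7.36 and 7.24 under Mbnl1 siRNA, and 7.91, 7.28 and 7.36 under control siRNA, and fell by 0.66 ± 0.05 (adjusted p = 2.81e-05). In each of these 3 genes all 0 h arrays were above all later arrays.

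Ier5, a stress-induced regulator linked to heat shock factor (probe set 10358978), had log2 levels of 7.92, 6.99 and 7.002 under Cugbp1 siRNA, 7.76, 6.78 and 6.86 under Mbnl1 siRNA, and 7.62, 6.83 and 6.89 under control siRNA, a fall by 0.90 ± 0.05 at 2.5 h (limma adjusted p = 3.45e-05 over all 19938 genes). Ier2, a nuclear protein of the early growth factor response (probe set 10580183), had log2 levels of 7.18, 6.32 and 6.69 under Cugbp1 siRNA, 7.25, 6.66 and 6.67 under Mbnl1 siRNA, and 7.43, 6.54 and 6.55 under control siRNA, a fall by 0.78 ± 0.09 (adjusted p = 0.00083). Both genes lay close to background at 2.5 and 5 h, which limits how far a fall can be followed; whether it shortens the falls measured was not tested. Over the first 2.5 h the apparent half-life lay between 1.79 and 2.32 h for Klf4 and 1.34 and 1.99 h for Ier3, and between 2.55 and 4.23 h in any of Ier2, Ier5, Klf2, Klf9 and Egr2. With equal ribosomal protein medians it lay between 1.18 and 1.38 h for Klf10 and between 2.86 and 3.64 h for Egr2. These half-lives assume an even loss relative to the rest of the array, and each rests on 1 pair of arrays.

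**Figure D2:**
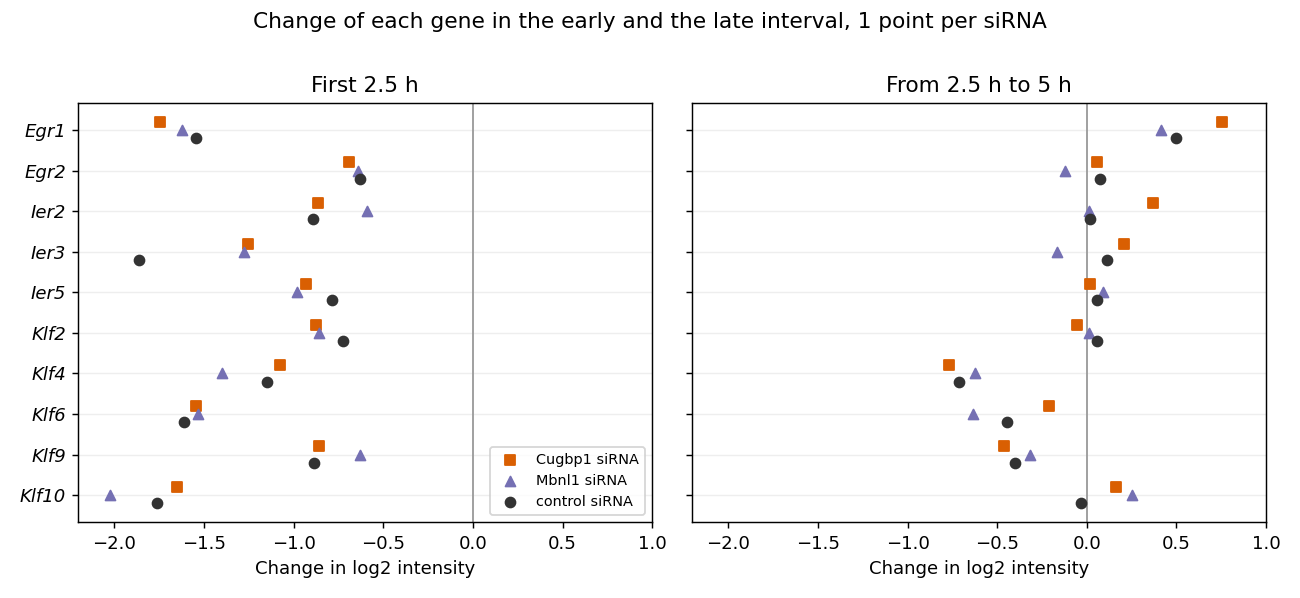
Change in log2 intensity of each gene over the first 2.5 h (left) and from 2.5 h to 5 h (right), with 1 point per siRNA. The left panel has all 30 points below 0; in the right panel Egr1 lies at 0.41 to 0.76, while Klf4, Klf6 and Klf9 lie between −0.77 and −0.21.

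From 2.5 h to 5 h the genes parted. Klf4, Klf6 and Klf9 went on falling, Egr1 rose, and Egr2, Ier3, Klf2 and Klf10 were not called. Thus 3 of the 8 tested genes were called lower, where 17% of all tested genes were, and 1 was called higher, where 4.47% were. With equal ribosomal protein medians the member counts were the same, but 3120 of the 9864 tested genes were called lower and 7 higher, so that the 3 falls lie near that background.

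Egr1 rose by 0.56 ± 0.06 on the log2 scale between 2.5 and 5 h, or 1.47-fold (limma adjusted p = 0.00106). The rise was 0.76 under Cugbp1 siRNA, 0.41 under Mbnl1 siRNA and 0.50 under control siRNA. This was the largest rise of the 9864 tested genes in this interval, the next being that of Gm10785 at 0.40, and no gene rose further in any alternative run, with the value ranging between 0.44 with equal ribosomal protein medians and 0.62 without the Mbnl1 siRNA array at 5 h. Without the Cugbp1 siRNA array at 2.5 h it was 0.48, level with Gm10785 at 0.48. Of the 2391 genes called lower at 2.5 h, 8 were then called higher (0.335%), 1363 were called lower again (57%) and 1020 were not called (42.7%); both changes use the 2.5 h arrays, so an array error there moves them in opposite directions. At 5 h Egr1 was at 50.4%, 43.2% and 48.5% of its 0 h level under Cugbp1, Mbnl1 and control siRNA.

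Klf4 fell by a further 0.70 ± 0.06 (limma adjusted p = 0.000381), by 0.77, 0.62 and 0.71 under Cugbp1, Mbnl1 and control siRNA. Klf6 fell by 0.43 ± 0.08 (adjusted p = 0.00767), by 0.21, 0.64 and 0.45 in the same order. Klf9 fell by 0.39 ± 0.07 (adjusted p = 0.00675), by 0.46, 0.32 and 0.40. These 3 had covered between 58.4% and 88.1% of their 5 h fall at 2.5 h, whereas Klf10 had covered 98.3% to 114%, the values over 100% standing for a lower level at 2.5 h than at 5 h.

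The late changes of Klf10 (0.13 ± 0.08, limma adjusted p = 0.27), Ier3 (0.05 ± 0.13, adjusted p = 0.803), Egr2 (0.00 ± 0.05, adjusted p = 0.958) and Klf2 (0.00 ± 0.05, adjusted p = 0.96) did not pass. With equal ribosomal protein medians the last 3 turned to −0.06, −0.11 and −0.11, also not called. Klf10 and Klf2 stayed at least 1.37 and 1.36 above the olfactory 95th percentile on all arrays. Egr2 and Ier3 came nearer, to 0.84 and 0.64 above it at their lowest. Whether nearness to background flattened their late change was not tested. In the fit of all genes, Ier2 (0.13 ± 0.09, adjusted p = 0.479) and Ier5 (0.05 ± 0.05, adjusted p = 0.648) were not called either, where 0.446% of genes were called higher and 5.28% lower.

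**Figure D3:**
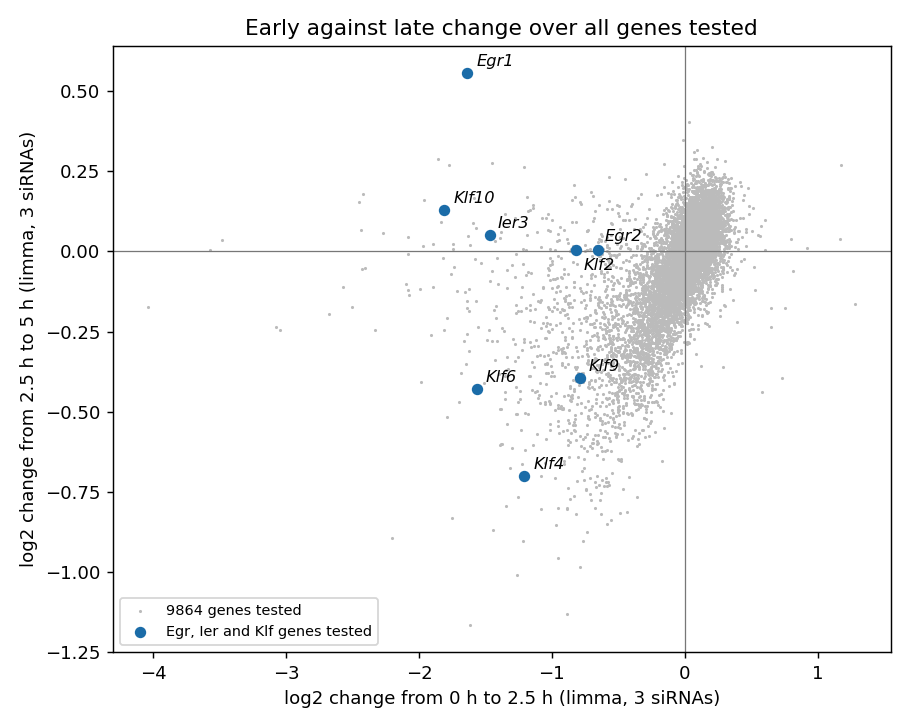
Fitted log2 change from 0 h to 2.5 h (horizontal axis) against that from 2.5 h to 5 h (vertical axis) for the 9864 genes tested (grey points), with the 8 Egr, Ier and Klf genes tested in blue. Egr1, at −1.64 and 0.56, is the highest point of the plot, and Klf4, at −1.21 and −0.70, the lowest of the 8.

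Over the whole 5 h, Klf6 and Klf4 lost the most. Klf6 was 3.98-fold lower at 5 h than at 0 h (log2 change −1.99 ± 0.08, limma adjusted p = 5.18e-07), with 22.2% to 29.6% left, and 39 of the 9864 tested genes fell further. Klf4 was 3.76-fold lower (−1.91 ± 0.06, adjusted p = 2.44e-07), with 24.6% to 27.9% left. Klf10 (−1.68 ± 0.08), Ier3 (−1.41 ± 0.13), Klf9 (−1.19 ± 0.07), Egr1 (−1.08 ± 0.06), Klf2 (−0.82 ± 0.05) and Egr2 (−0.65 ± 0.05) followed, with adjusted p of 3.94e-05 or less. All 8 tested genes were called lower, where 32.8% of tested genes were called lower and 35.6% higher, at a median of −1.30 against 0.04. As at 2.5 h, Egr2 and Ier3 count among the 8 through their 0 h levels. The choice of the genes with earlier results known limits these shares as well. With equal ribosomal protein medians all 8 were also called lower, where 5479 of the 9864 tested genes were called lower and 234 higher. In the fit of all genes all 10 were called lower, Ier5 (−0.85 ± 0.05) and Ier2 (−0.65 ± 0.09) included. There 17.3% of genes were called lower and 21% higher. The order of the genes thus changed between the times, with Egr1 second at 2.5 h and sixth of the 8 at 5 h.

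Under Cugbp1 siRNA none of the 8 tested genes was called higher or lower than under control siRNA over the 3 times. The limma count was 0 of 8, against 10.5% of all tested genes called higher and 8.67% called lower. An unadjusted p under 0.05 was found for 2 of the 8, Egr2 and Klf4, and for 3275 of the 9864 tested genes. Their median difference was −0.11 against 0.01 for all tested genes. The estimates lay between −0.20 ± 0.06 for Klf4 (adjusted p = 0.0506) and 0.13 ± 0.07 for Klf9 (adjusted p = 0.232). Klf4 was lower at all 3 times, by 0.23, 0.16 and 0.21, and passed the test when an intensity trend was added to the prior (adjusted p = 0.0396). Egr2 (−0.13 ± 0.05, adjusted p = 0.116) was also lower at all 3 times. Egr1 (−0.09 ± 0.06, adjusted p = 0.379), Klf6 (−0.14 ± 0.08, adjusted p = 0.262), Klf2 (0.02 ± 0.05, adjusted p = 0.806) and Klf10 (0.01 ± 0.08, adjusted p = 0.947) had no single direction over the times. A single call appeared when 1 of 4 arrays was left out: Klf4 without the Mbnl1 siRNA array at 0 h (adjusted p = 0.0159) or 2.5 h (0.0371), Egr2 without that at 5 h (0.0492), and Klf6 without the Cugbp1 siRNA array at 5 h (−0.26, adjusted p = 0.0285).

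Ier3 stood 0.61 lower under Cugbp1 siRNA than under control siRNA at 0 h, while the differences at the later times were −0.01 and 0.09. The estimate over the 3 times was −0.18 ± 0.13 (limma adjusted p = 0.385). Ier5 was higher at all 3 times, by 0.30, 0.15 and 0.11; its difference of 0.19 ± 0.05 had an adjusted p of 0.095 in the fit of all genes, where 2.57% of genes were called higher and 2.29% lower, and 0.0486 with the filter set at the olfactory receptor 95th percentile. Ier2 differed by −0.11 ± 0.09 (adjusted p = 0.592). In a bulk sample, fewer cells making an mRNA and less of it per cell cannot be told apart.

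Under Mbnl1 siRNA, Klf4 and Egr1 were lower than under control siRNA at every time. Among the 8 tested genes 4 were called lower and 2 higher, where 31% of all tested genes were called lower and 24% higher. Klf4 was 1.45-fold lower (log2 difference −0.54 ± 0.06, limma adjusted p = 0.00016), by 0.40, 0.65 and 0.56 at 0, 2.5 and 5 h. Egr1 was 1.33-fold lower (−0.42 ± 0.06, adjusted p = 0.000965), by 0.33, 0.42 and 0.50. Both kept their call in each alternative run.

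Another 4 genes were called with smaller margins. Klf6 (−0.23 ± 0.08, limma adjusted p = 0.0412) and Klf10 (−0.22 ± 0.08, adjusted p = 0.0417) were lower at all 3 times, and Klf2 (0.18 ± 0.05, adjusted p = 0.0197) and Ier3 (0.40 ± 0.13, adjusted p = 0.029) were higher at all 3. Ier3 differed by 0.11 at 0 h, 0.69 at 2.5 h and 0.42 at 5 h. Each of these 4 calls was lost in the fit of all genes, where the adjusted p was 0.093 for Klf6, 0.0944 for Klf10, 0.0559 for Klf2 and 0.0658 for Ier3. They were also lost without single arrays. For Klf6 the adjusted p was 0.164 without the Mbnl1 siRNA array at 5 h, 0.0507 without the Cugbp1 siRNA array at 2.5 h, and 0.14, 0.102 and 0.0779 without the control siRNA array at 0, 2.5 and 5 h. For Klf10 it was 0.185 and 0.0871 without the Mbnl1 siRNA array at 2.5 and 5 h, 0.0594 without the Cugbp1 siRNA array at 2.5 h, and 0.127 and 0.175 without the control siRNA array at 0 and 2.5 h. For Klf2 it was 0.0651 and 0.0502 without the Mbnl1 siRNA array at 0 and 2.5 h, and 0.0781 and 0.0545 without the control siRNA array at the same times. For Ier3 it was 0.132 without the Mbnl1 siRNA array at 2.5 h, and 0.137 and 0.114 without the control siRNA array at 2.5 and 5 h. Egr2 (0.01 ± 0.05, adjusted p = 0.823) and Klf9 (0.00 ± 0.07, adjusted p = 0.975) were not called, nor were Ier2 (0.02 ± 0.09, adjusted p = 0.889) and Ier5 (0.02 ± 0.05, adjusted p = 0.832) in the fit of all genes, where 13.7% of genes were called lower and 11.9% higher. The count of calls among the 8 is thus near the background, and their median difference was −0.11 against −0.02 for all tested genes.

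Sums of marker genes differed between Mbnl1 and control siRNA for some lists and overlapped or lay close for others. Under Cugbp1 siRNA the range of the sums overlapped that under control siRNA in every list. It was 16264 to 17181 for myoblast, 1534 to 1696 for differentiated muscle, 549 to 624 for leukocyte and 436 to 532 for epithelial markers. The summed intensity of the 5 myoblast markers was 14749 to 15118 under Mbnl1 siRNA and 16585 to 16884 under control siRNA, and that of 5 markers of differentiated muscle was 1959 to 1983 and 1481 to 1616, with 4 of the 5 above background on all arrays. For the 4 leukocyte markers on the array it was 875 to 1083 and 483 to 557, with Ptprc, Adgre1 and Csf1r at or under background on all 9 arrays and Cd68 above it. For 3 epithelial markers it was 717 to 813 and 509 to 559, with Epcam at or under background on all arrays. For 3 adipocyte markers it was 152 to 160 and 157 to 165, and for 3 endothelial markers 209 to 220 and 203 to 232, each list with 1 marker above background on all arrays and the other 2 at or under it on all. The part of these shifts, and of the lower Celf1 under Mbnl1 siRNA given above, in the differences of Klf4 and Egr1 was not tested.

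**Figure D4:**
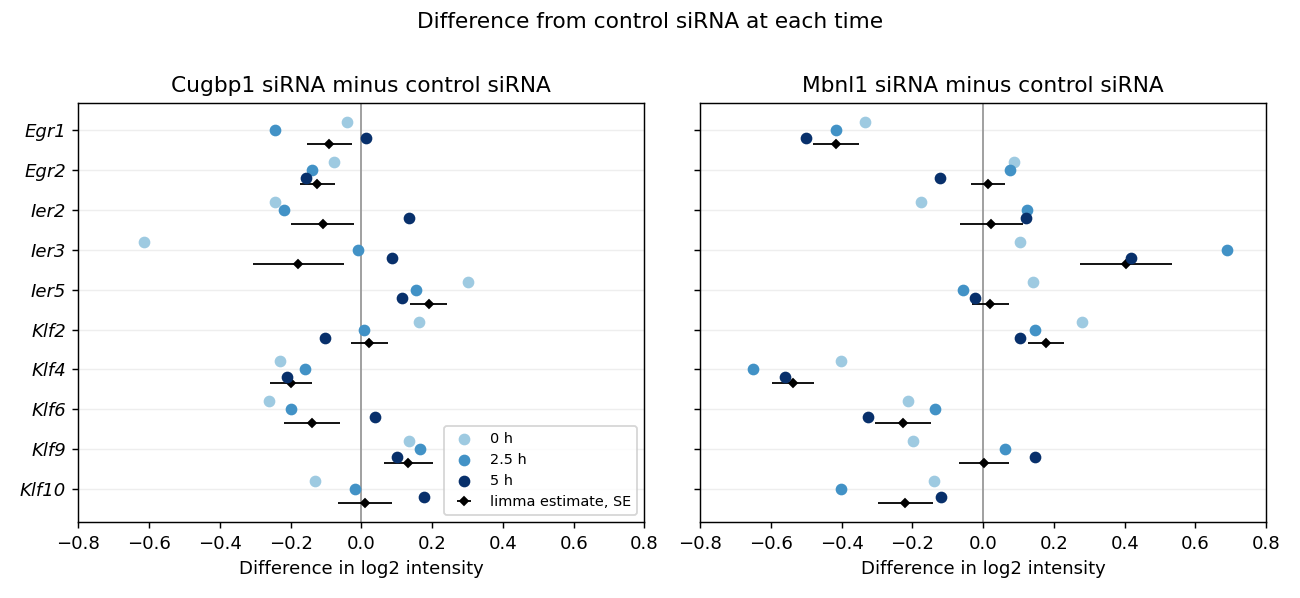
Difference in log2 intensity from control siRNA for Cugbp1 siRNA (left) and Mbnl1 siRNA (right) at 0, 2.5 and 5 h (circles, light to dark), with the limma estimate over the 3 times and its SE (black diamonds; for Ier2 and Ier5 from the fit of all genes). Both panels use the same control arrays. Under Mbnl1 siRNA the 3 circles of Klf4 lie between −0.65 and −0.40 and those of Egr1 between −0.50 and −0.33.

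The study's question, whether an siRNA changed decay, was put to the hourly slope of each gene against that under control siRNA. None of the 8 tested genes was called for either siRNA (limma, 2 residual degrees of freedom), and few other genes were: 0% of tested genes were called in either direction for Cugbp1 siRNA, where 1129 had an unadjusted p under 0.05, and 0% higher and 0.0203% lower for Mbnl1 siRNA, where 1361 did. The count of all genes for Mbnl1 siRNA, 2 here, was 313 with equal ribosomal protein medians, 192 with an intensity trend and 203 without the Mbnl1 siRNA array at 2.5 h, and none of the 8 was called in these. For Cugbp1 siRNA the slopes of 2 of the 8 had an unadjusted p under 0.05. Ier3 had a slope 0.14 ± 0.04 per h less steep (adjusted p = 0.365), with the lower 0 h level described above; without the control siRNA array at 0 h the difference was 0.00329. Klf2 had one 0.05 ± 0.02 per h steeper (adjusted p = 0.365). For Mbnl1 siRNA this held for Klf9 alone, whose slope was 0.07 ± 0.02 per h less steep (adjusted p = 0.177), with 51.9% of its 0 h level left at 5 h under Mbnl1 siRNA against 40.9% under control siRNA. Klf9 stood 0.20 lower under Mbnl1 siRNA than under control siRNA at 0 h and 0.15 higher at 5 h. Without the control siRNA array at 0 h its slope difference was 0.0418. The lower level of Klf4 and Egr1 under Mbnl1 siRNA was present at 0 h, and their slopes differed by −0.03 ± 0.03 per h each (adjusted p = 0.672 and 0.677). A straight line in hours describes Egr1 poorly, since its level turned after 2.5 h.

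Relatives and partners of these genes were read from 3 lists. These lists too were chosen with earlier results of these data known, so their shares are descriptions. Of 4 tested genes among Egr3, Egr4, the Egr corepressors Nab1 and Nab2 and the Ier5 relative Ier5l, 3 fell by 2.5 h and the same number by 5 h, at median log2 changes of −0.55 and −0.68 against 0.03 and 0.04 for all tested genes, and 0 rose, where 24.2% and 32.8% of all tested genes were called lower. Ier5l fell by 1.17 ± 0.06 at 2.5 h (limma adjusted p = 3.43e-06). Nab2 fell by 0.82 ± 0.08 at 2.5 h (adjusted p = 0.000131) and by 1.64 ± 0.08 at 5 h (adjusted p = 1.32e-06), and was the only one called from 2.5 h to 5 h, when it fell by 0.82 ± 0.08 (adjusted p = 0.000592). Under Mbnl1 siRNA, Nab1 was lower (−1.47 ± 0.13, adjusted p = 4.85e-05), and Nab2 (0.52 ± 0.08, adjusted p = 0.000969) and Egr3 (0.42 ± 0.06, adjusted p = 0.000524) were higher; under Cugbp1 siRNA, Egr3 alone was called, and lower (−0.29 ± 0.06, adjusted p = 0.0133).

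Of the 11 tested among 21 other KLF and SP factors, 7 fell by 2.5 h (median −0.36) and 8 by 5 h (median −0.58), where 24.2% and 32.8% of all tested genes fell (medians 0.03 and 0.04). Klf5, a factor of proliferating epithelium and smooth muscle, fell by 1.35 ± 0.04 at 5 h (limma adjusted p = 2.44e-07), Klf3 by 1.03 ± 0.08 (adjusted p = 1.11e-05) and Klf7 by 0.65 ± 0.06 (adjusted p = 4.13e-05). The only member that rose at 5 h was Sp9, named after its value was seen (0.20 ± 0.06, adjusted p = 0.0182). From 2.5 h to 5 h, 4 of the 11 fell and 0 rose, where 17% and 4.47% of all tested genes did. Under Mbnl1 siRNA, where 31% of all tested genes were lower and 24% higher, 3 of the 11 were lower, Sp3 (−0.35 ± 0.05), Klf7 (−0.33 ± 0.06) and Sp1, and 2 were higher, Klf5 (0.33 ± 0.04) and Klf3 (0.25 ± 0.08), with adjusted p of 0.0232 or less for those given values. Klf16 was the only one called under Cugbp1 siRNA (−0.25 ± 0.04, adjusted p = 0.00776).

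Of 15 tested among 19 upstream factors and kinases, 5 fell and 2 rose by 2.5 h (median −0.06), and 7 fell and 3 rose by 5 h (median −0.04). Among all tested genes 24.2% fell and 23.1% rose by 2.5 h (median 0.03), and 32.8% fell and 35.6% rose by 5 h (median 0.04), so the number that fell was not far above the background. Mrtfa, a coactivator of serum response factor, fell by 1.67 ± 0.04 at 5 h (limma adjusted p = 8.06e-08), its relative Mrtfb by 0.91 ± 0.05 (adjusted p = 1.79e-06), and Mapk7, the ERK5 kinase upstream of Klf2 and Klf4, by 0.79 ± 0.04 (adjusted p = 2.18e-06). Srf, which encodes serum response factor, was lower under Mbnl1 siRNA (−0.36 ± 0.04, adjusted p = 0.000124) and under Cugbp1 siRNA (−0.18 ± 0.04, adjusted p = 0.0145), and Nr3c1, the glucocorticoid receptor, was lower under Mbnl1 siRNA (−0.99 ± 0.14, adjusted p = 0.000538). Under Cugbp1 siRNA 2 of the 15 were called lower and 0 higher, where 8.67% and 10.5% of all tested genes were. Besides Srf this was Rps6ka3, with the larger difference (−0.23 ± 0.04, adjusted p = 0.00675). Under Mbnl1 siRNA 6 of the 15 were lower and 3 higher, near the 31% and 24% of all tested genes, the 3 being Mef2a (0.35 ± 0.04, adjusted p = 0.000131), Mef2d and Mrtfa.

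Over the 9 arrays the 10 genes followed each other with Pearson correlations between 0.741 and 0.973 (median 0.897, 45 pairs), which is a description of levels that share the fall after 0 h. Likeness to other genes was measured as the root mean square difference of log2 levels centred on each gene's mean over the 9 arrays. Klf2 was nearest to Cbx8 (0.055), a Polycomb group protein, Klf9 to Hdhd3 (0.0614) and Egr2 to the homeobox gene Hlx (0.0639). Klf6 was nearest to Fiz1 (0.112), Klf4 to the ubiquitin ligase gene Siah1b (0.116), Klf10 to F3 (0.127), which encodes tissue factor, and Ier3 to 2310057M21Rik (0.145). Egr1 had no gene as near: its nearest were Arrdc3 (0.25) and Zfp747 (0.251). The second nearest were Ell for Klf2 (0.0828), Cdc42ep4 for Klf9 (0.0798), Pvr for Egr2 (0.0798), Mepce for Klf6 (0.137), Bcor for Klf4 (0.153), Adnp2 for Klf10 (0.158) and Ptger4 for Ier3 (0.154).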

How the data were processed

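Per the labels' protocols, 100 ng of total RNA was biotin-labelled and hybridised to Affymetrix arrays. The deposited values are intensity values made with RMA in Affymetrix Expression Console, per the submitters' processing notes, which give no versions. The linear scale was read from the values, and log2 was taken here. Of 35556 probe sets, 21789 had 1 symbol, 1621 several and 12146 none; symbols were updated by gene ID. Where a gene had several probe sets, that of highest mean stood for it. Genes with a mean log2 of at least 7.385, the 50th percentile over probe sets with 1 symbol, entered limma (version 3.58.1, R version 4.3.3), with lmFit and eBayes, on siRNA and time as factors, with 4 residual degrees of freedom. Slopes added a straight line in hours per knockdown, leaving 2. P-values were adjusted over all tested genes at a threshold of 0.05. The fits were tested on simulated data. Recovery of added changes was required for the change at 5 h and the level under Cugbp1 siRNA, but not for the slopes. The text names the 10 genes, the siRNA targets, up to 3 of the largest called changes per list and comparison, and the 2 genes nearest to each tested member; further genes were named where a count was small. The members and lists were chosen with earlier results of these data known. Alternatives changed the filter, the scaling, the choice of probe set, the prior and the slope model, and left out each array in turn. The number of arrays limits the precision.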

Additional observations from a re-analysis of the deposited data

How the results depend on the processing

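The falls of all 10 genes at 2.5 and 5 h, the late rise of Egr1, the late falls of Klf4, Klf6 and Klf9, and the lower Klf4 and Egr1 under Mbnl1 siRNA kept their direction and call in every alternative run for them. Without the Mbnl1 siRNA array at 2.5 h the adjusted p of the late fall reached 0.0495 for Klf6 and 0.0448 for Klf9. Across the alternative runs, 388 outcomes of single genes called in the main fit kept the call and 24 lost it. The losses concerned Klf6, Klf10, Klf2 and Ier3 under Mbnl1 siRNA. Not all 24 came from the runs with no filter or with 1 array left out. The number of the 8 genes called under Mbnl1 siRNA was 6, but 2 with no filter, and 2 to 6 with 1 array left out: 2 without the control siRNA array at 2.5 h, and 3 without that at 0 h or without the Mbnl1 siRNA array at 2.5 h. Under Cugbp1 siRNA it was 0, but 1 with the filter at the olfactory receptor 95th percentile (Ier5), 1 with an intensity trend (Klf4), and 0 to 1 with 1 array left out. For the late interval 2113 of all genes were called, 1141 with no filter and 1019 to 2328 with 1 array left out, the lowest without the Mbnl1 siRNA array at 2.5 h. For the level under Cugbp1 siRNA 1894 were called, 969 with no filter, 1056 with equal ribosomal protein medians and 742 to 2027 with 1 array left out, the lowest without the control siRNA array at 2.5 h. For the slope under Cugbp1 siRNA 0 genes were called, 12 with equal ribosomal protein medians and 6 with an intensity trend. For the slope under Mbnl1 siRNA 2 were called, 313 with equal ribosomal protein medians, 192 with an intensity trend, 20 with the mean of all probe sets, and 0 with no filter, with the olfactory filter or with a straight line and no shared time factor; with 1 array left out it was 0 to 203, the highest without the Mbnl1 siRNA array at 2.5 h, with 7 without that at 5 h, 2 without the control siRNA array at 2.5 h and 0 without any of the other 6. None of the 8 genes was called for either slope in any of these.

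Values near 0 that were not called changed sign. With equal ribosomal protein medians the late change of Egr2 became −0.111, of Klf2 −0.111, of Ier3 −0.0649 and of Ier5 −0.0625, the last with no filter, a combination chosen after seeing the data. With 1 array left out, the late change ranged between −0.0378 and 0.0639 for Egr2, −0.0791 and 0.151 for Ier3, and −0.0455 and 0.049 for Klf2. The level under Cugbp1 siRNA ranged between −0.308 and 0.00505 for Ier3, −0.0383 and 0.0721 for Klf2, and −0.0573 and 0.1 for Klf10. Under Mbnl1 siRNA it ranged between −0.0203 and 0.0739 for Egr2, −0.0626 and 0.106 for Ier2, −0.0385 and 0.0493 for Ier5, and −0.0765 and 0.103 for Klf9. The cause of these moves was not tested. No replicate block could be added, since the labels give no replicate numbers; with siRNA and time as factors, the fit already compares siRNAs within each time.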
